A study of Mus musculus with 281 samples.

Results

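The complement components and regulators C4b, C3, C1qa, C1qb, C1qc, Cfi, Serping1, Cd59a and Clu were followed through single cells of the mouse stria vascularis, the tissue of the cochlear lateral wall that secretes potassium into the endolymph. These 9 genes, of 47752 in the deposited gene table, were taken by name. They were chosen by their measured levels in these same cells, and C4b had already been singled out for its difference between Slc26a4+/+ and Slc26a4-/- intermediate cells. Their levels and ratios are therefore given as a description, with no test.

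Complement is a chain of proteins that tags surfaces for uptake by phagocytes. In the classical route the C1q complex, built from the A, B and C chains, activates proteases that cleave C4 and then C2. The pieces form an enzyme that cleaves C3, the step on which all routes meet. Host cells are protected by inhibitors at each step. Serping1 blocks the first proteases, factor I (Cfi) inactivates cleaved C4 and C3, and CD59 and clusterin (Clu) block the pore that ends the chain. Liver makes most of the circulating proteins, and C1q comes mainly from macrophages and microglia.

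All mice were male and of the 129S6 strain. Cells were drawn singly into a micropipette after collagenase treatment, and full-length cDNA was made by Smart-Seq2. The groups were cells of wild-type mice (Slc26a4+/+, WT; 52, 26, 75 and 19 cells in sequencing runs 1 to 4) aged P22 to P42, 40 cells of heterozygotes (Slc26a4+/-, HET) aged P26 to P33, and 69 cells of homozygotes for the mutant allele (Slc26a4-/-, KO) aged P24 to P44. Slc26a4 encodes pendrin, an anion exchanger that carries bicarbonate into endolymph. The allele is carried in the germ line, so cells of every type lack the intact gene in KO mice. The labels tie no cell to a mouse, so each genotype counted as 1 sample and no p-value was computed. Cells were not treated as replicates of a genotype, and intervals for shares of cells describe the cells drawn only. As a measure of spread the cells were grouped into 37 sessions, a session being the cells of 1 genotype, sequencing run, collection day and age. Runs, called batches here, were not balanced. Intermediate-like cells of KO mice came from batches 2 and 4 alone, those of HET mice from batch 4 alone, and batches 1 and 3 held only WT intermediate-like cells.

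A cell held between 1848 and 7932729 estimated counts, with a median of 1312950. Levels are CPM, a cell's counts of a gene scaled to the same total in every cell, and a cell was said to hold a gene when it had at least 10 counts of it. Clusters built without the complement genes were named from marker lists. They gave intermediate-like cells (IMC-like, 69 WT, 23 HET and 39 KO cells), 34 spindle-like cells (SC-like), 35 root-like cells (RC-like) and 21 marginal-like cells (MC-like). SC-like and RC-like cells together are called pendrin cells (39 WT, 8 HET and 22 KO cells). A cluster of 43 cells led by the globin gene Hbb-bs and one of 17 cells led by Vmo1, Slc26a7 and Crhbp were left unnamed. The summed markers of intermediate cells, melanocyte-derived cells in the middle layer of the stria, reached a median of 48752 CPM in IMC-like WT cells, 80913 CPM in HET cells and 71767 CPM in KO cells, although the pigment genes Tyrp1 and Pmel were at 0 in the WT and the HET cells, respectively. In IMC-like cells the summed 12 macrophage markers had medians of 4.04, 1.64 and 3.03 CPM in WT, HET and KO cells, with Aif1 and Adgre1 at 0 in all 3 genotypes. In SC-like cells the summed spindle markers had a median of 44966 CPM in WT but 9534 CPM in KO cells. Marginal markers in SC-like cells had medians of 3575 CPM in WT and 8214 CPM in KO cells. Counts of Slc26a4 over the whole gene did not check the genotype, with a mean of 793 CPM in KO pendrin cells and 969 CPM in WT pendrin cells.

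C4b lies on chromosome 17 of the mouse genome (GRCm38, chr17:34728380-34743882, minus strand), 65209 bases from its near copy C4a, and this bears on every C4b value below. The principal C4b transcript, of 5379 bases, matched a C4a transcript at 96.1% of 5367 aligned bases, with identical runs of up to 433 bases. Of its 5349 stretches of 31 bases, 2610 (48.8%) also occur in C4a. The pair of 60-base windows below lies in exon 21 of each gene, with bases from GENCODE M21 transcripts and positions on GRCm38. Only coding windows without a gap and inside 1 exon were compared, and none of them held more differing bases. Capitals mark the 13 bases that differ. The C4b window is chr17:34735430-34735489 and the C4a window chr17:34816086-34816145, both on the minus strand.
C4b: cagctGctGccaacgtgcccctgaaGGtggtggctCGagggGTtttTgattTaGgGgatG
C4a: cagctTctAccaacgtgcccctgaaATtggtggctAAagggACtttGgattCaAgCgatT
C4a was listed at 0 in every cell, and the transcript tables gave values for 3 C4b transcripts and for none of C4a. Reads of C4a, if present, could therefore not be told apart from C4b, and the name C4b covers both here. In IMC-like WT cells 92.98% of the counts lay on the protein-coding C4b transcript, 5.66% on one marked for nonsense-mediated decay and 1.36% on one with a retained intron.

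C4b, the source of the C4 fragment that binds covalently to surfaces, was a gene of intermediate-like cells. Among WT classes it averaged 413.4 CPM in IMC-like, 10.2 CPM in RC-like, 0.179 CPM in MC-like and 0.177 CPM in SC-like cells. The IMC-like mean was 37.1-fold above that of the next of the 4 named classes (log2 ratio 5.21). The unnamed cluster led by Hbb-bs lay between, at 92.8 CPM in WT cells. At least 10 counts were present in 49 of 69 IMC-like WT cells (71.01%, exact 95% interval 58.8 to 81.3%) and in 0 of 23 SC-like and 0 of 14 MC-like WT cells, where the intervals reach 14.8% and 23.2%. In RC-like WT cells 1 of 16 held C4b, at 134.2 CPM, and this cell also carried macrophage genes (see the C1q chains). The last 3 named classes in this order did not differ beyond their cells' spread, since RC-like cells had a median of 0.324 CPM and the others a median of 0. In the Hbb-bs cluster 5 of 39 WT cells held C4b, with the highest at 1404 CPM. In the cluster led by Vmo1 it was held by 1 of 11 WT cells, at 53.2 CPM. In all, 93 cells held C4b (33.1%). On the TPM scale, which corrects for transcript length, the IMC-like WT mean of 176.5 ranked C4b at 907 of 30803 genes.

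Single IMC-like cells differed widely in C4b, as the plot of C4b by cell class shows. The 69 WT cells ranged from 0 to 3379 CPM with a median of 238.3 CPM. The 23 HET cells ranged from 0 to 735 CPM with a median of 54.9 CPM, and the 39 KO cells from 0 to 512 CPM with a median of 9.09 CPM. All 3 ranges overlapped, and the genotypes parted at the upper end of the pooled cells. That pool includes batches 1 and 3, which held 16 and 34 WT IMC-like cells and none of the other genotypes. A level of 1000 CPM or more was reached by 8 WT cells and by 0 HET and 0 KO cells, and 100 CPM or more by 43 WT, 10 HET and 10 KO cells. A level under 1 CPM was found in 16 WT cells, 1 HET cell and 14 KO cells. The 5 highest cells carried 33.97% of the summed WT level, 73.2% of the HET level and 57.3% of the KO level.

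**Figure D1:**
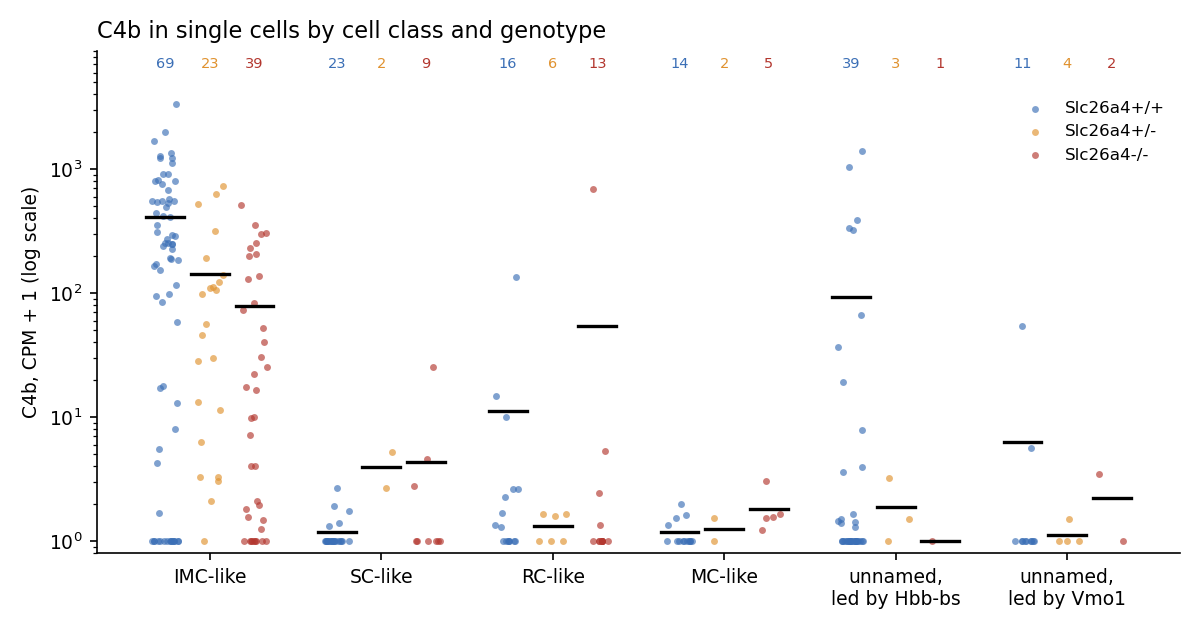
C4b in each cell, as CPM + 1 on a log scale, by cell class and genotype. Points are cells, black bars are means and the numbers above are cells. IMC-like cells hold most high values, and their means step from 413 CPM in WT to 141.7 CPM in HET and 77.2 CPM in KO cells.

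The mean of C4b in IMC-like cells was 413 CPM in WT, 141.7 CPM in HET and 77.2 CPM in KO cells. The log2 ratio of KO to WT was -2.41, a 5.30-fold lower mean in KO cells, and that of HET to WT was -1.54. KO cells were 0.87 lower than HET cells on the log2 scale (ratio -0.87), less than 2-fold. Within batch 2 the mean was 725 CPM in 12 WT cells and 77.1 CPM in 27 KO cells (log2 ratio -3.22). Within batch 4 it was 314.02 CPM in 7 WT, 141.7 CPM in 23 HET and 77.5 CPM in 12 KO cells (log2 ratios -2.01 for KO and -1.14 for HET against WT). The order WT, HET, KO thus held inside the only batch with all 3 genotypes. The WT mean there leaned on 1 of 3 sessions, of 2 cells at 671 CPM. The other WT sessions, at 139.5 and 192.3 CPM, lay within the range of the HET sessions. Without that session 5 WT cells averaged 171.2 CPM, and the log2 ratios to WT were -1.13 for KO and -0.27 for HET cells. Both intermediate-like clusters had the same order when pooled over all batches, with the WT cells of batches 1 and 3 included. The means were 277.02, 144.7 and 87.3 CPM in the larger cluster. In the smaller they were 601.5, 121.7 and 54.4 CPM, where the HET mean rests on 3 cells. The clusters split the same cells, so they are no separate check.

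Measured against the spread between sessions, the difference was less firm. Session means of C4b ran from 0 to 1375 CPM over 21 WT sessions (SD 402 CPM), from 28.8 to 198.2 CPM over 4 HET sessions (SD 78.4) and from 15.6 to 130.7 CPM over 9 KO sessions (SD 45.9). The WT sessions spanned the whole KO range, and the KO and WT means differed by less than the SD of the WT sessions. No cell held C4b in 4 of the 21 WT sessions, with 5 cells in all, against 0 of 4 HET and 0 of 9 KO sessions. WT cells of batch 1 averaged 696 CPM and those of batch 3, all WT, 190.7 CPM. On 5 collection days of batch 2 both WT and KO cells were taken, at ages at most a few days apart. KO cells were lower on 2 of these days. On one, 3 WT cells averaged 1067 CPM and 4 KO cells 123.6 CPM, and on the other 4 WT cells averaged 1375 CPM and 6 KO cells 87.4 CPM. On the other 3 days the WT side was 2, 1 and 1 cells, all at 0, and the KO means were 15.6, 27.8 and 107.98 CPM. With those days weighted equally the log2 ratio was +1.72, the opposite sign.

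**Figure D2:**
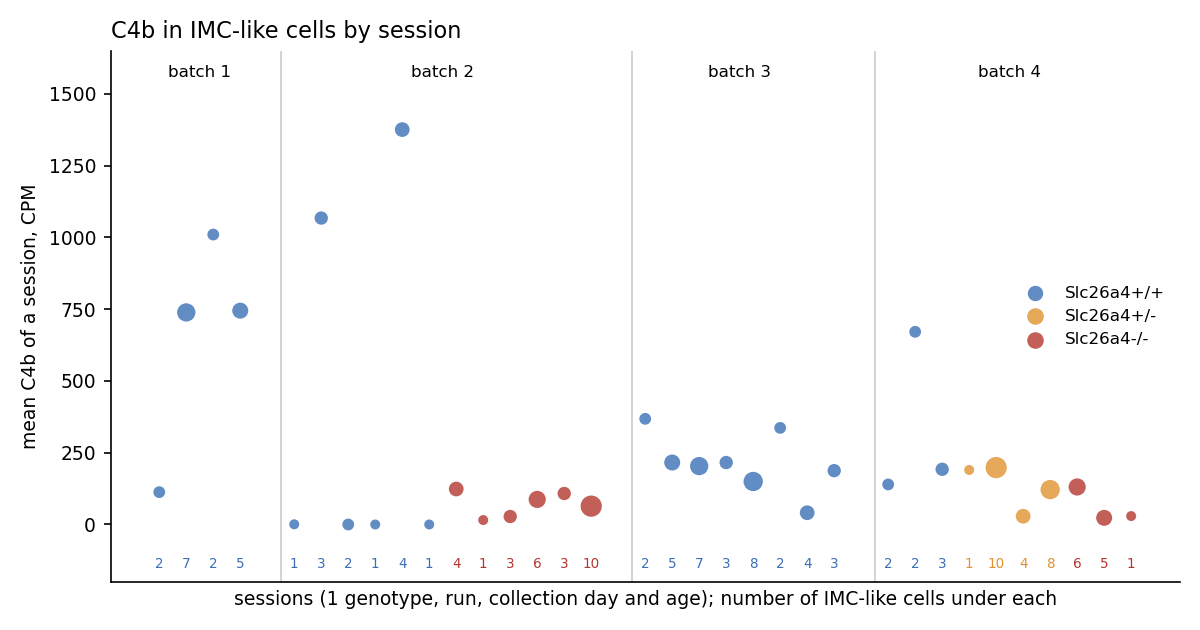
Mean C4b of IMC-like cells in each session, in CPM, by batch. A point is 1 session, its area grows with its number of cells, and that number stands below it. WT sessions scatter from 0 to 1375 CPM, and the 9 KO sessions lie between 15.6 and 130.7 CPM.

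Shares of cells holding C4b depend on depth, and HET cells were sequenced more deeply (median 2443458 counts in IMC-like cells, against 1174072 in WT and 1228991 in KO cells). As deposited, 71.01% of WT, 78.3% of HET and 46.2% of KO IMC-like cells held C4b. After each cell was thinned to 100000 counts, and 2 shallower WT cells were left out, the shares were 41 of 67 WT cells (61.2%), 8 of 23 HET cells (34.8%) and 10 of 39 KO cells (25.6%). With a limit of 1 count the thinned shares were 70.1% of WT, 73.9% of HET and 53.8% of KO cells, so the place of HET cells depended on the limit.

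Of the 9 complement genes, 3 passed a filter of at least 10 CPM on average in either genotype of IMC-like cells, namely C4b, Cd59a and Clu. Between KO and WT, C4b alone was past a 2-fold ratio, and it was lower. Among all genes passing the same filter, 28.8% were past 2-fold in either direction and 17.7% were past it with the lower mean in KO cells, so 1 of 3 is near the share of all genes. Between HET and WT, C4b was again the only one of the 3 past 2-fold, against 32.2% of all genes in either direction. The median log2 ratio over all genes was -0.14 for KO and -0.12 for HET against WT.

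The C1q chains, encoded side by side on chromosome 4 (C1qa at chr4:136895917-136898803, minus strand), were rare. C1qa reached 10 counts in 2 cells of all, C1qb in 4 and C1qc in 3. These were 7 different cells, of which 2 held more than 1 chain and 0 held all 3. One RC-like WT cell of batch 4, from a mouse of P33, had 397 CPM of C1qb, 369 CPM of C1qc and 15.5 CPM of C1qa, the last from 6 counts. The same cell held 8 of the 12 macrophage markers, at a summed 1920 CPM, and 118.7 CPM of Serping1. It is the RC-like WT cell with 134.2 CPM of C4b, and 4 cells in all held 6 or more of those markers. The other cell with more than 1 chain was an SC-like KO cell with 58.9 CPM of C1qa, 53.96 CPM of C1qb from 11 counts and 19.6 CPM of C1qc from 4 counts. Its summed macrophage markers came to 432 CPM, nearly all of it Cx3cr1. The remaining 5 cells held 1 chain each. An SC-like WT cell had 249.2 CPM of C1qb with all macrophage markers at 0. An IMC-like WT cell had 105.7 CPM of C1qa beside summed macrophage markers of 11.2 CPM, and an IMC-like KO cell had 75.5 CPM of C1qb beside 131.9 CPM of them. C1qc was held at 62.4 CPM by an SC-like KO cell with 185.3 CPM of these markers and at 53.7 CPM by an IMC-like WT cell with 349.8 CPM. Of the 7 cells, 1 thus lacked macrophage markers altogether. Whether another cell or free RNA was drawn up with any of these was not tested.

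C3, the central component (chr17:57203970-57228136, minus strand), was found mostly in the cluster led by Hbb-bs. It was held by 7 cells, 6 of them in that cluster, where 4 WT and 2 HET cells ranged from 576 to 1502 CPM. Each of those 6 cells also held at least 3 macrophage markers, with Lyz2 between 1000 and 86917 CPM, and 4 of them granulocyte or marrow markers as well. The seventh was the SC-like KO cell that held C1qc, with 55.2 CPM. In IMC-like cells C3 was held by 0 of 69 WT, 0 of 23 HET and 0 of 39 KO cells, and the mean was 0.037 CPM in WT cells, against 413 CPM for C4b in the same cells. The highest IMC-like cell had 1.62 CPM of C3.

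The soluble inhibitors were also carried by single cells. Cfi (chr3:129835884-129875332, plus strand), the protease that inactivates cleaved C3 and C4, was held by 4 cells: an SC-like KO cell at 191.3 CPM, RC-like KO cells at 5.09 and 236.04 CPM and a WT cell of the Vmo1 cluster at 316 CPM. It was at 0 in every IMC-like cell. Serping1 (chr2:84765387-84775444, minus strand) was held by 6 cells, the highest an RC-like KO cell at 591 CPM and the next an IMC-like WT cell at 224.1 CPM. In all, 20 cells held any of C3, the C1q chains, Cfi or Serping1. Absence in the remaining cells means only that the gene was not detectable at this depth.

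**Figure D3:**
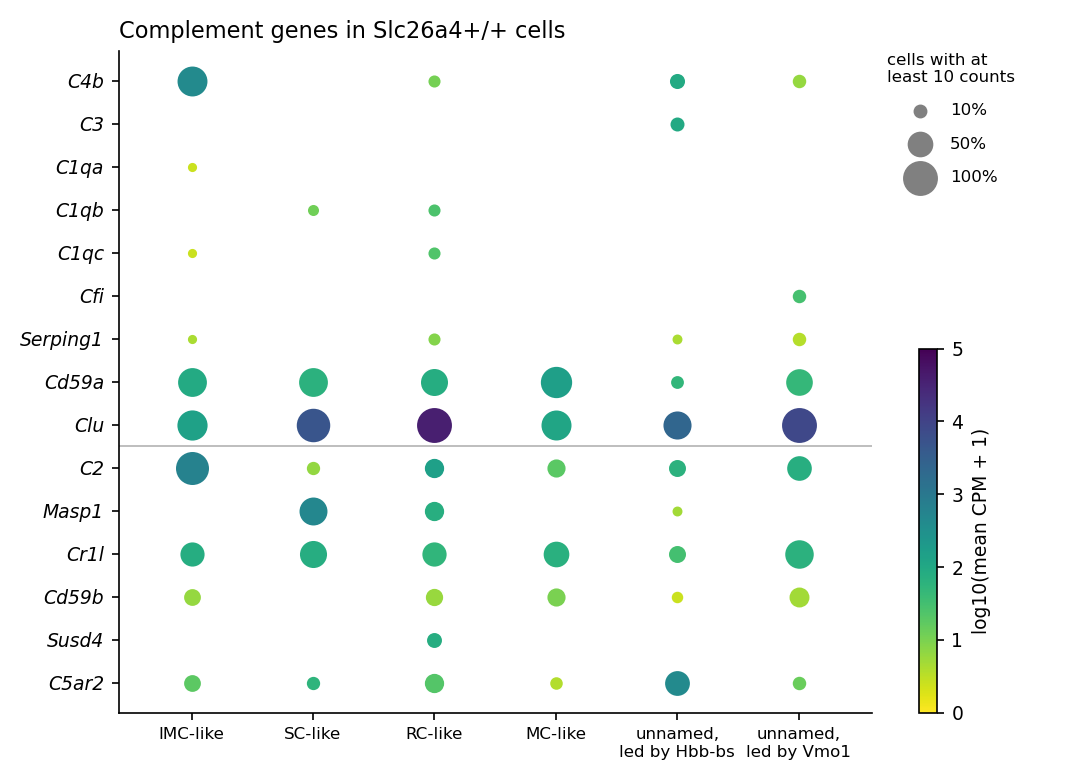
The 9 members (above the line) and 6 further complement genes in WT cells of 6 classes. Colour is log10 of mean CPM + 1, dot area follows the percent of cells with at least 10 counts, and no dot means that 0 cells reached it. C4b is large only in IMC-like cells, where 71.01% of cells held it, while Cd59a and Clu are present in every class.

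Cd59a, the membrane inhibitor of the terminal pore (chr2:104095801-104115354, plus strand), was found in every named class. In WT cells its mean was 153.6 CPM in MC-like, 88.8 CPM in IMC-like, 78.1 CPM in RC-like and 61.7 CPM in SC-like cells. The first class was 1.72-fold above the second, and neighbours in this order overlapped, with cells of every class ranging from 0 up to 326 to 587 CPM. Cd59a was held by 59.1% of all cells, and by 65.2% of both IMC-like and SC-like WT cells. In IMC-like cells the mean was 88.8 CPM in WT, 94.04 CPM in HET and 68.7 CPM in KO cells (log2 ratio -0.37 for KO and 0.08 for HET against WT). The ratio of KO to WT was -0.13 within batch 2 and 0.37 within batch 4, so no direction held. In pendrin cells the means were 68.4, 201.8 and 70.2 CPM in WT, HET and KO cells. The HET mean rests on 8 cells ranging from 0.661 to 547 CPM, with a log2 ratio to WT of 1.55 and of 1.28 within batch 4. The pooled KO mean hid a split between the classes. In SC-like cells it was 9.93 CPM over 9 KO cells, of which 3 held Cd59a and none exceeded 41.1 CPM, against 61.7 CPM over 23 WT cells (log2 ratio -2.52). All 9 KO cells came from batch 2, where only 2 SC-like WT cells were taken, at 0 and 138.3 CPM. The SC-like KO cells were shallower, at a median of 561315 counts against 1820555 in WT cells. After thinning to 100000 counts, 0 of 9 KO and 5 of 21 WT cells held Cd59a. In RC-like cells the KO mean of 111.9 CPM was above the WT mean (log2 ratio 0.52). Cd59b, its neighbour, shares sequence with Cd59a (10.2% of the stretches of 31 bases in the main Cd59a transcript occur in another gene, mostly Cd59b), so some reads may be split between them. Its mean was 5.30 CPM in IMC-like WT cells.

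Clusterin, encoded by Clu (chr14:65968483-65981547, plus strand), is a secreted chaperone that binds the forming pore. Its RNA was among the most abundant of root-like cells. In the 16 RC-like WT cells it ranged from 1116 to 127001 CPM with a median of 21142 and a mean of 38165 CPM, and on the TPM scale it ranked 2 of 30803 genes. SC-like WT cells averaged 4728 CPM (rank 12), 8.07-fold less. IMC-like and MC-like WT cells averaged 139.1 and 115.7 CPM, with medians of 20.2 and 9.78 CPM, and did not differ beyond their ranges. The unnamed cluster led by Vmo1 had a mean of 8205 CPM over 11 WT cells, all of which held Clu. In the cluster led by Hbb-bs 1 WT cell had 65313 CPM against a median of 54.95 CPM, and its only KO cell, at 62170 CPM, carried 70658 CPM of spindle markers. Every RC-like cell and 83.3% of all cells held Clu, and a single protein-coding transcript of 1811 bases took 98.8% of its counts in RC-like WT cells.

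**Figure D4:**
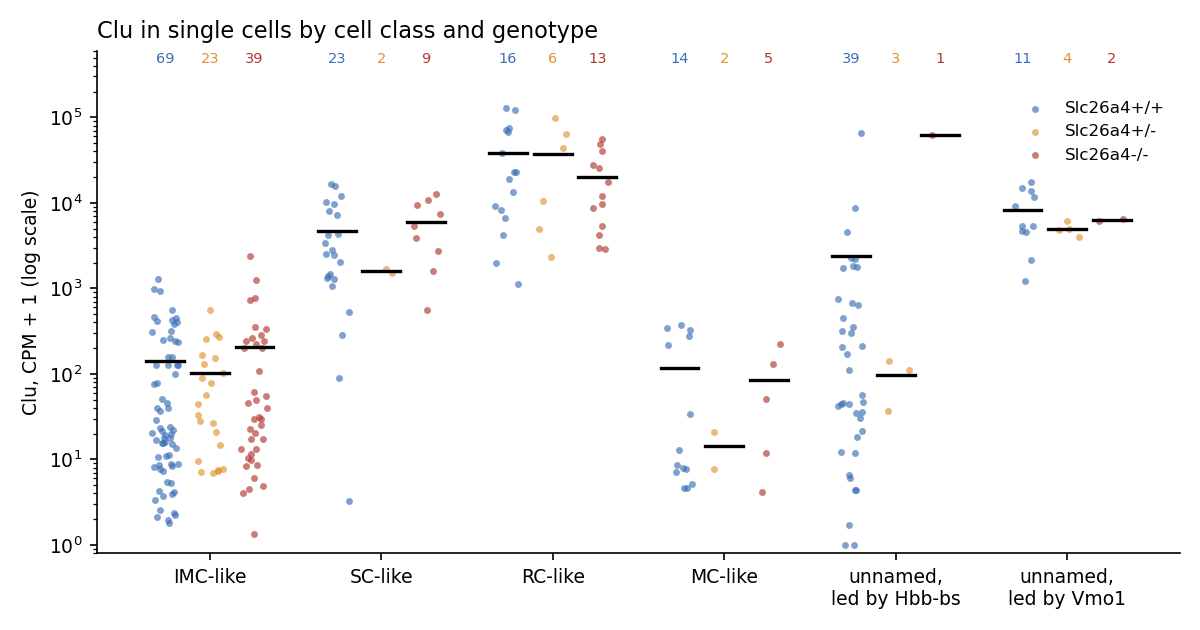
Clu in each cell, as CPM + 1 on a log scale, by cell class and genotype. Points are cells, black bars are means and the numbers above are cells. RC-like cells stand highest, with a WT mean of 38165 CPM, followed by the Vmo1 and SC-like cells, and IMC-like and MC-like cells lie lowest, at WT means of 139.1 and 115.7 CPM.

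Between genotypes Clu followed no single direction. In RC-like cells the mean was 38165 CPM in WT, 37114 CPM in 6 HET and 20131 CPM in 13 KO cells, and the KO cells, from 2891 to 56166 CPM, lay inside the WT range. In SC-like cells the KO mean of 6024 CPM was above the WT mean. Over pendrin cells the log2 ratio of KO to WT was -0.36, with 0.03 within batch 2 and -0.83 within batch 4. In IMC-like cells the means were 139.1, 101.6 and 207.2 CPM in WT, HET and KO cells. The log2 ratio of KO to WT there was 0.57 in all, 1.72 within batch 2 and -2.23 within batch 4, where the signs are opposite.

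In pendrin cells 6 of the 9 genes passed the filter between KO and WT, and 4 of them were past 2-fold, 1 lower and 3 higher in KO cells. All genes were past 2-fold in 37.7% of cases in either direction and in 22.2% with the lower mean in KO cells. The 4 were C1qb (log2 ratio -2.35), C4b (2.69), Cfi (4.46 with 1 CPM added) and Serping1 (3.07), each of which reached 10 counts in at most 3 cells of a genotype. For C4b the KO mean of 33.1 CPM rests on 1 RC-like cell of batch 2 at 692 CPM, and the WT mean of 4.28 CPM mostly on the RC-like cell with macrophage markers. That WT cell also had 397 CPM of C1qb. It was the only WT pendrin cell to hold Serping1, at 118.7 CPM, while the KO mean of Serping1 rests mostly on 1 RC-like cell at 591 CPM. Within batch 2 the C4b log2 ratio was 4.74 and within batch 4 it was -4.10. For Cfi, at 0 in all 39 WT pendrin cells, the KO mean of 21.04 CPM rests mostly on cells at 236.04 and 191.3 CPM. With so few cells no bound on the fold difference between genotypes is given. Between HET and WT, 3 genes passed the filter and 2 were past 2-fold, Cd59a higher and C1qb lower, against 47.3% of all genes. C1qb was at 0 in all 8 HET pendrin cells, where the interval for cells holding it still reaches 36.9%. The WT mean of 16.6 CPM rests on 2 of 39 cells, so this ratio does not separate the genotypes.

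A list of 45 further complement genes placed these values. It was drawn up with earlier results of these data known. At least 1 cell of 10 counts was found for 32 of them, and 7 were at 0 in all cells. Of the terminal components, from C5 (gene Hc) on, 2 of 7 reached a cell with 10 counts, and of the recognition molecules and early proteases 11 of 14. By a mean of at least 50 CPM, or presence in at least 20% of cells, in a named WT class, 6 were retained: C2, Masp1, Cr1l, Cd59b, Susd4 and C5ar2.

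C2, the protease that joins C4b in the C3-cleaving enzyme (chr17:34862604-34898265, minus strand), was the most widely held of these 6 in intermediate-like cells. It was held by 61 of 69 WT, 23 of 23 HET and 36 of 39 KO IMC-like cells, with means of 613, 891 and 538 CPM. The log2 ratio was -0.19 for KO and 0.54 for HET against WT, both under 2-fold. Per length its mean in IMC-like WT cells was 385 TPM, above the 176.5 TPM of C4b. RC-like WT cells averaged 149.4 CPM, from 4 of 16 cells, and SC-like WT cells 5.46 CPM. C2 overlaps Gm20547 on its strand and Zbtb12 on the other, so some of its reads may be theirs. Over the 129 IMC-like cells of at least 100000 counts the levels of C4b and C2 were unrelated (Spearman's rho -0.01, across cells that share sessions and depth). Masp1, a protease of the lectin route, was highest in SC-like WT cells, with 481 CPM and 14 of 23 cells, followed by RC-like WT cells with 72.96 CPM and 4 of 16 cells, against 0.14 CPM in IMC-like WT cells. Its SC-like means in HET and KO mice were 97.5 CPM over 2 cells and 166.9 CPM over 9, near the RC-like means of 115.5 CPM in HET and 133.2 CPM in KO mice. Cr1l, a membrane inhibitor also called Crry, was at 52.7 to 78.8 CPM in all 4 named WT classes. C5ar2 and Susd4 passed through few cells, with C5ar2 at 53.9 CPM in SC-like WT cells from 2 of 23 cells and Susd4 at 76.1 CPM in RC-like WT cells from 2 of 16.

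Cd55, which speeds the decay of the C3-cleaving enzyme, fell outside that rule. It was named after its values were seen and was also listed by the study from these cells. It was held by 0 of 69 WT, 2 of 23 HET and 16 of 39 KO IMC-like cells, with means of 0.0723, 15.9 and 42.8 CPM. WT cells did not exceed 1.81 CPM, and KO cells reached 176.2 CPM with a median of 0. Within batch 2 it was in 0 of 12 WT and 6 of 27 KO cells, and within batch 4 in 0 of 7 WT, 2 of 23 HET and 10 of 12 KO cells. The log2 ratio of KO to WT was 5.35 in all, 4.52 within batch 2 and 6.48 within batch 4. With a cut set at Cd55's own counts, at least 16 KO and 0 WT IMC-like cells, 3 genes were found, Cd55 among them. Because the cut was taken from Cd55 itself, this number does not measure how unusual the gene is. Of the 45 further genes 6 passed the filter in this comparison and Cd55 alone was past 2-fold, a share below the 28.8% of all genes. Outside IMC-like cells Cd55 was held by 1 RC-like WT cell at 72.2 CPM and 2 WT cells of the Hbb-bs cluster. The gene overlaps Gm16083 on the opposite strand, and Smart-Seq2 reads do not keep strand.

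**Figure D5:**
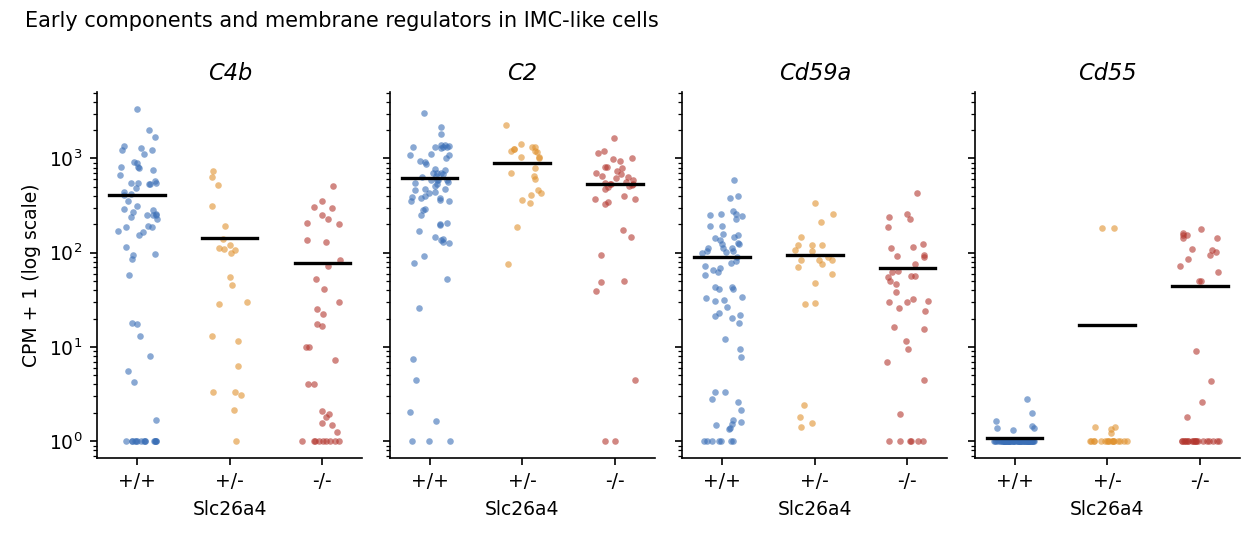
C4b, C2, Cd59a and Cd55 in IMC-like cells by genotype, as CPM + 1 on a log scale, with points for cells and black bars for means. C4b falls from 413 CPM in WT to 77.2 CPM in KO cells, C2 and Cd59a keep similar means, and Cd55 exceeds 10 counts in 0 WT and 16 KO cells.

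The genes whose levels ran most like a member were found over the cells of at least 100000 counts, among 10162 genes, by Spearman's rho, for C4b, Cd59a and Clu, the members held by enough cells. For C4b they were Dkk3 (0.62), Alpl (0.59) and Car14 (0.59), which averaged 4171, 1621 and 2466 CPM in IMC-like WT cells. For Clu they were Fbxo2 (0.74), Lect1 (0.71) and Skp1a (0.66), with Fbxo2 at 16868 CPM in RC-like WT cells. For Cd59a the highest values were lower, at 0.40 for Dnajb9, 0.37 for Fam134b and 0.36 for Cd81. These cells share libraries, sessions and class, so the values describe which genes mark the same cells. Of member pairs inside a class only 2 were looked at, with a rho of 0.09 between C4b and Cd59a over 129 IMC-like cells and 0.06 between Clu and Cd59a over 34 RC-like cells.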

How the data were processed

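The deposited values were estimated counts per gene and, per cell, estimated counts and TPM per transcript, which the authors made with kallisto on GRCm38 (mm10) and a script of their own that summed transcripts to genes. Version and annotation release are not given in the sources used here. There were no molecular identifiers, so PCR copies are not independent molecules. Every interval is binomial over cells taken as independent draws. It leaves out differences between mice, sessions and batches. Of the gene table's 298 columns 17 were not used.

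Groups came from the sample titles. Counts were scaled to CPM. Log2 ratios were taken between mean CPM over cells after adding 1 CPM, for genes with a mean of at least 10 CPM in either genotype. Intervals are exact (Clopper-Pearson). No mouse is named for a cell, so no test was run, and a gene past 2-fold was only counted. TPM were summed to genes with GENCODE M21 (1288 of 98492 transcripts had no gene there, a median of 0.635% of a cell's counts), which also gave positions on GRCm38. Of the RefSeq promoter windows given, 4 of the 9 members had one and none was used.

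All 281 cells were clustered with Seurat 5.3.0 in R 4.3.3 (2000 variable genes, less complement genes and genes in the study's claims and tables, 10 components, resolution 0.8). A cluster was named when at least 80% of its cells scored highest on 1 strial marker list, at least 3 markers were present in most cells and its 10 leading genes held no more markers of another list than its own. Cells were picked one by one, and no doublet caller was run. Only the log2 ratio of mean CPM was tested on simulated counts, which held no session or batch effect. The genes followed here, the lists and the comparisons were chosen with earlier results of these data known. Genes outside the 9 were named by level in a named WT class (at least 50 CPM, or 20% of cells) or as the 3 nearest by Spearman's rho. Cd55 and Cfb met neither rule. Alternatives covered TPM, cell filters, cell typing, weighting by session, batches, the highest cells, pseudocount and depth. Others, chosen after seeing the data, took single clusters, sessions with a C4b cell, batch 4 without its highest WT session, shared collection days and pendrin cells without 1 cell that carried macrophage markers.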

Additional observations from a re-analysis of the deposited data

Results flagged for a closer look

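The ratio of KO to WT for C4b had opposite signs in 2 cell groups, and this difference was not tested. In IMC-like cells the log2 ratio was -2.41, from 69 WT and 39 KO cells, and in pendrin cells it was 2.69, from 39 WT and 22 KO cells. Only 1 WT and 1 KO pendrin cell held at least 10 counts of C4b. Without the highest cell of each genotype the pendrin ratio was 0.55, while that in IMC-like cells was -2.47. A search for single cells far from the rest covered groups of 4 to 10 cells with a mean of at least 10 CPM. It found 0 in 5 groups, all of Cd59a or Clu, where chance gives about 1 in 20. No group of C4b had that size and level, and the 13 RC-like KO cells were too many, so C4b was not searched.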

How the results depend on the processing

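The log2 ratio of C4b between KO and WT IMC-like cells kept its sign under 22 of 23 alternatives, and was -1.134 within batch 4 without its highest WT session. The exception, added after seeing the data as was that session's removal, was the mean over the same collection days of batch 2 (1.72), in which 3 of 5 days rest on 1 or 2 WT cells. The alternatives re-use the same cells, and some could not reverse the sign. Adding C4a, at 0 in every cell, left the ratio as it was. Keeping only sessions with a C4b cell removed WT sessions alone, which can only lower the ratio. HET against WT stayed between -2.30 and -0.27 over 20 alternatives, nearest 0 without that session. C4b in IMC-like cells over the next named class stayed between 4.30 and 6.93, and Clu in RC-like cells over the next named class between 2.69 and 3.26. The number of members past 2-fold between KO and WT IMC-like cells, 1 in the report, was 2 without batch 2, 2 without batch 4 and 5 with no filter on low genes. That in pendrin cells, 4 in the report, was 2 with cell types from the highest marker score and 7 with no filter. In pendrin cells the ratio of KO to WT was reversed without batch 2 (C4b -2.40, Serping1 -2.10) and within batch 4 (C4b -4.10, Serping1 -3.985), and that of C4b between HET and WT was 0.092 without the RC-like cell that carried macrophage markers. The cause of these changes was not tested, beyond the number of cells each rests on.

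Batches 1 and 3 gave no within-batch ratio because they held IMC-like cells of WT mice alone, and no HET value exists without batch 4. Summing C4b and C4a changed nothing, since C4a was listed at 0. No paired analysis was possible because the numbers in the sample titles only count cells and no cell is tied to a mouse. That concerns pairing by number, and the ratio over shared collection days is given above. Genotype, batch, age and depth differ together, and with each genotype as 1 sample their parts cannot be told apart.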

Other observations

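The receptor C5ar2 was most widely held outside the named classes. In the cluster led by Hbb-bs it was held by 18 of 39 WT cells, with a mean of 416 CPM, a median of 32.6 CPM and a highest cell of 2964 CPM, against 12 of 69 IMC-like WT cells with a mean of 16.97 CPM. Of those 39 cells 15 had under 100000 counts, where a high CPM can rest on few counts. C5ar2 overlaps Gm26473 on its strand, so some of its reads may belong to that gene. The alternative-pathway protease gene Cfb, like Cd55, fell outside the rule on levels. It was held by 24 cells, of which 11 of 69 WT, 1 of 23 HET and 9 of 39 KO cells were IMC-like, with means of 18.7, 3.51 and 15.96 CPM.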
